A study of Mus musculus with 8 samples.

Results

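The transcriptional response of parental N18TG2 cells to all-trans retinoic acid (RA) was taken from 4 of the 8 arrays of the study, 2 labelled as N18TG2 treated with RA and 2 labelled as N18TG2 untreated. N18TG2 is a mouse neuroblastoma line. The treated cells received 1 µM RA in a differentiation medium with 1% fetal bovine serum and at most 0.01% DMSO, the solvent. Both groups had been grown in medium with 10% serum, and neither the medium of the untreated cells nor the length of RA treatment is given, so a change of serum and the addition of RA cannot be told apart. The other 4 arrays hold the 2/4 clone, an N18TG2 derivative labelled as expressing choline acetyltransferase and kept in G418 at 200 µg/mL, untreated and with the same RA medium. No label states that the replicate arrays were made from different cultures, and the p-values therefore reflect only how far these samples vary, which may be technical.

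RA is made from vitamin A inside cells and acts as the ligand of nuclear receptors, the RA receptors, which sit on DNA as dimers with retinoid X receptors. Such a dimer binds a pair of short direct repeats, the RA response element. Among the genes it is known to switch on are its own receptor RARβ, the CYP26 enzymes that break RA down, and the Hox genes at the early-responding ends of their clusters. In neuroblastoma cells RA is used to stop growth and induce neuronal differentiation.

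Values are log2 of the background-subtracted array signal minus the array's 75th percentile, so 0 is that percentile, and each difference is RA minus untreated with its standard error (SE) from limma. They are comparable for 1 probe between arrays, not between probes. Of 26259 genes tested, 293 changed at a Benjamini-Hochberg adjusted p under 0.05 (1.12%), of which 138 rose (0.526%) and 155 fell (0.59%). These shares are the base against which the counts in gene lists below are to be read. The changed genes with a symbol numbered 230, of which 88 rose and 142 fell. The median difference over all genes was 0.02, and the smallest change called was 1.58 upward and 1.54 downward, with smaller changes below what this fit detected. With any parental array left out, its group held only 1 array. All 293 genes kept the sign of their difference in each of these fits, but almost none stayed called. Without clone untreated replicate 1 or 2, which enter through the shared estimate of spread, 37 genes were called, and without clone RA replicate 1 or 2 654 were.

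All arrays shared 1 slide. The parental RA arrays lay in row 1 and the parental untreated arrays in row 2, so slide row and RA cannot be told apart within the line; in the clone the rows were the other way round. The share of probes well above background was 54.3% and 62.8% on the RA arrays and 47.8% and 55.4% on the untreated arrays. Among the genes tested, 614 were well above background on both RA arrays and on neither untreated array (2.34%), against 48 in the reverse pattern (0.183%). The part of this difference in the calls on dim genes was not tested. The correlation between arrays of a group was 0.983 with RA and 0.9838 without, and lay between 0.968 and 0.9769 across the groups. The labels' RNA extraction text mentions hippocampus. Of 21 markers of neuroblastoma and sympathetic neuroblast cells 18 were well above background on all 4 arrays. This list and the next were chosen with earlier results of these data known. Of 20 hippocampal neuron markers 5 were well above background on all 4 arrays. A further 11, among them Prox1, Neurod6 and Gad1, were not well above background on any. The source of the RNA was not tested.

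Promoter sequences are shown for Rarb, Cyp26b1 and Hoxb4, which rose here, and for Cyp26a1, like Rarb a textbook direct target of RA receptors, which had no measured change. They are RefSeq sequences of build GRCm38.p6, from 250 bases before to 50 bases after the transcription start, read 5′ to 3′ along the gene. Capitals mark a direct repeat with a spacer of 5 bases, that is a hexamer, any 5 bases and again a hexamer, on either strand, where the hexamer is AGGTCA or AGTTCA or GGGTCA or GGTTCA.
Rarb promoter, chr14:16575427-16575726 (- strand): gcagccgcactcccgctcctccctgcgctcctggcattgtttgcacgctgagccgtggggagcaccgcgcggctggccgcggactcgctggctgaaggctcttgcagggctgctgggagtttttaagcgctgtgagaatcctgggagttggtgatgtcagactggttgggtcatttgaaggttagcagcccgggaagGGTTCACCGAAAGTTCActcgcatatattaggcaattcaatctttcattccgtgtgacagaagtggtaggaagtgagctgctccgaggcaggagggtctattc
Cyp26a1 promoter, chr19:37697558-37697857 (+ strand): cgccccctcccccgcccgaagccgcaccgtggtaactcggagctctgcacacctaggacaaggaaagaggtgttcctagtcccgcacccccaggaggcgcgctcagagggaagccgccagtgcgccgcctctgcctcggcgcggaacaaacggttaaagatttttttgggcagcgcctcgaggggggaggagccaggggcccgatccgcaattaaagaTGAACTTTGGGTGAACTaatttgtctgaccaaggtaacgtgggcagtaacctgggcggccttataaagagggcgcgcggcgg
Cyp26b1 promoter, chr6:84593761-84594060 (- strand): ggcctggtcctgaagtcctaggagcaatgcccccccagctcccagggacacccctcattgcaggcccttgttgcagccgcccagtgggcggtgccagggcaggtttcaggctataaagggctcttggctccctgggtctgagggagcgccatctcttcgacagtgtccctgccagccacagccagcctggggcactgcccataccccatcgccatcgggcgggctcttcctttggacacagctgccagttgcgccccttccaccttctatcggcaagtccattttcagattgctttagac
Hoxb4 promoter, chr11:96318017-96318316 (+ strand): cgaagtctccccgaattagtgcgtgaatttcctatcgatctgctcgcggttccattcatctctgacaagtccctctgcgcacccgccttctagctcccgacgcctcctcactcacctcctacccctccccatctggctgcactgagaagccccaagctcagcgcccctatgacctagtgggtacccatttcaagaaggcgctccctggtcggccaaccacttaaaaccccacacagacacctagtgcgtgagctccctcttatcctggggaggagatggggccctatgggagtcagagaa
In Rarb the repeat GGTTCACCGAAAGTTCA spans positions -53 to -37 from the start, and in Cyp26a1 the repeat lies on the opposite strand, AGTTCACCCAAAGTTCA, at -32 to -16. The windows of Cyp26b1 and Hoxb4 hold none, and only these letters in these windows were searched. Such a repeat was found in 32 of 32851 promoters in the RefSeq table (0.0974%), in 7 of the 15209 promoters of tested genes (0.046%), in 1 of 83 promoters of genes that rose, which is Rarb, and in 0 of 151 promoters of genes that fell. The same hexamers with a spacer of 2 bases were found in 88 promoters (0.268%), in 0 promoters of changed genes, and no promoter held both.

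The retinoid pathway responded at its degradation, uptake and receptor steps. Cyp26b1, which hydroxylates RA for clearance, lay at 0.93 and 0.23 on the untreated arrays and at 5.67 and 6.36 with RA. The groups were far apart, a rise of 5.44 ± 0.60, or 43.3-fold (adjusted p = 0.0157). Stra6, the membrane receptor that takes up retinol from its plasma carrier, lay at -1.02 and -0.90 untreated and at -6.19 and -4.87 with RA. It fell by 4.57 ± 0.47 (adjusted p = 0.0145), and 1 of the 2 RA arrays was still well above background. Rarb was not well above background on either untreated array (-6.92 and -7.89) and was on both RA arrays (-4.02 and -3.29). That is at least a 2.7-fold rise, measured from the lowest level well above background, and the fitted difference was 3.75 ± 0.45 (adjusted p = 0.0181). A second Rarb probe, also dim, differed by 0.55, and after normexp background correction, an alternative to the scanner software's, the Rarb difference was 0.53 and not called (adjusted p = 0.852). Normexp was run with an offset of 50 added to every signal, which shrinks log2 differences of dim genes by construction. For such genes, here and below, a smaller difference or lost call after normexp does not decide whether they changed.

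Of the 14 tested genes of retinoid enzymes and binding proteins 1 rose and 1 fell, and the median difference was 0.22, which turned to -0.42 after normexp background correction; 6 further members of the list were not tested because their probes were too dim. The uncalled 12 lay between -1.21 and 1.49. Crabp2, which carries RA to the nuclear receptors, lay at 0.17 and 0.34 untreated and at 2.07 and 1.38 with RA, a difference of 1.47 ± 0.34 that did not pass (adjusted p = 0.101). Rdh5, a retinol dehydrogenase, differed by 1.49 (adjusted p = 0.113), Aldh1a3, which makes RA from retinal, by -1.21 (adjusted p = 0.108), and the retinol carrier Rbp4 by -1.05 (adjusted p = 0.126). In all 4 of these genes the groups did not overlap, as in 23.4% (RA above) and 20.8% (RA below) of all genes. Cyp26a1, whose promoter holds the repeat, was not well above background on any of the 4 arrays (-6.53 and -7.57 untreated, -6.65 and -6.32 with RA), so it has no measured change.

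Of 18 nuclear receptors and their cofactors tested, Rarb alone was called, and the median was 0.04. The other RA and retinoid X receptors, Rara, Rarg, Rxra, Rxrb and Rxrg, differed by -0.91 to -0.03, with adjusted p from 0.225 to 0.982. Among 27 other known RA targets 1 rose: Smad3, a transducer of TGF-β signals, from 1.45 and 1.32 to 3.29 and 3.26, a difference of 1.89 ± 0.30 (adjusted p = 0.0421). Smad3 lost its call in limma after normexp (adjusted p = 0.0835) and in a fit to the 4 parental arrays alone (adjusted p = 0.0701). The median of that list of other RA targets was 0.30, or -0.22 after normexp.

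Hox genes encode transcription factors that specify position along the body axis. Both members that rose belong to the Hoxb cluster. Hoxb4 was not well above background on the untreated arrays (-6.36 and -5.60) and reached 1.08 and 0.64 with RA. The rise was at least 62.0-fold, with a fitted difference of 6.84 ± 0.38 (adjusted p = 0.00394). Hoxb5 went from background (-6.08 and -7.53) to -1.97 and -0.97, at least 12.3-fold (5.33 ± 0.57, adjusted p = 0.0157). Hoxb6 and Hoxb2 were likewise at background without RA and well above it on both RA arrays, by at least 3.31-fold and 1.35-fold, and their differences of 2.03 and 2.48 missed the threshold (adjusted p = 0.0586 and 0.0802); after normexp Hoxb2 turned to -0.07. All 5 tested Hoxb genes had positive differences, from 0.99 to 6.84, as did the 7 tested Hoxc genes, from 0.18 to 1.32, none of which was called. The 4 Hoxa genes lay between -1.09 and 0.03, and the 1 tested Hoxd gene at -2.07 (adjusted p = 0.66). After normexp background correction Hoxb4 kept its call with a difference of 3.75, while Hoxb5 lost it (1.93, adjusted p = 0.213), so the bounds hold for the signals as processed here.

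In all, 2 of 17 tested Hox genes rose and 0 fell, and 22 of 39 were too dim to test. Their median of 0.65 became -0.07 after normexp and -0.59 when dim probes were kept. A feature that the array names by its position, chr11:96175764-96176029 in mm9, lay at -4.26 and -4.31 untreated and at 1.60 and 0.53 with RA, a rise of 5.35 ± 0.42 (adjusted p = 0.00792). It was chosen for mention after its values were seen. Of 3681 tested features named in this way 13 changed, a smaller share than the 1.12% of all genes, and 12 of these rose. Of all 63 changed genes without a symbol 50 rose.

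**Figure D1:**
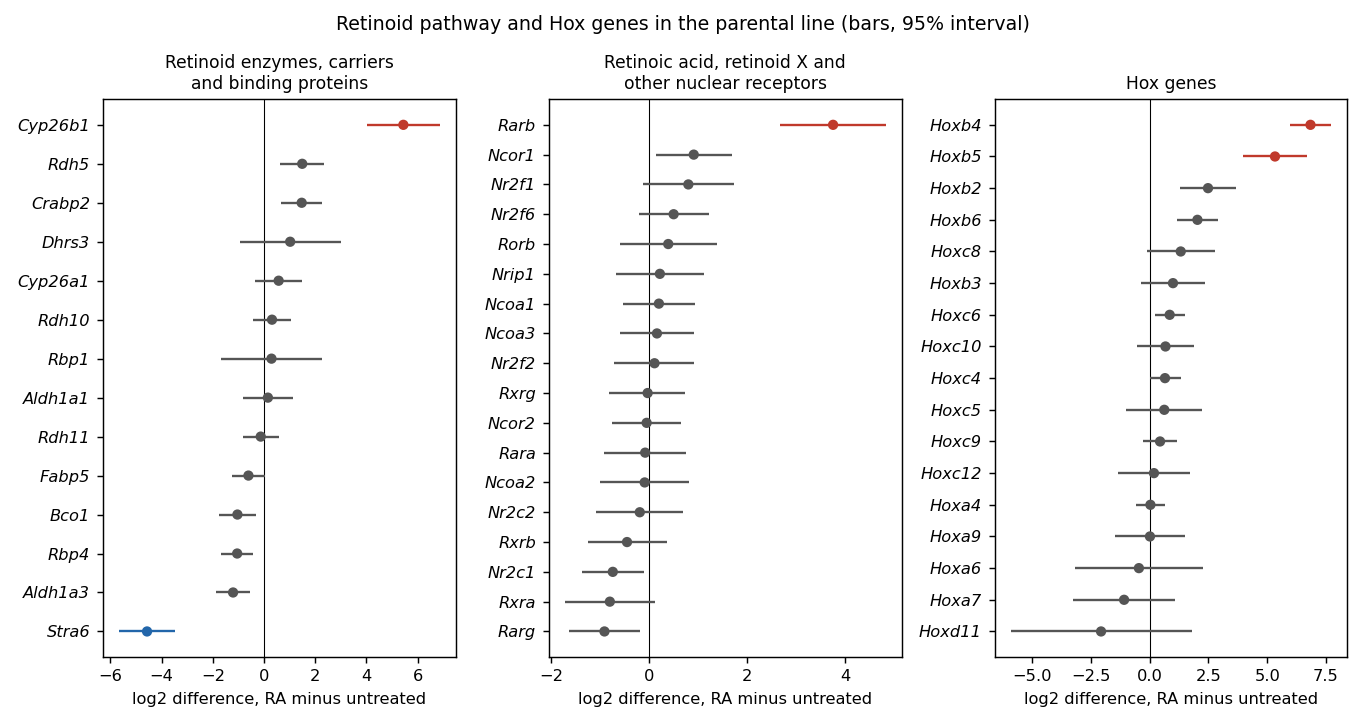
Log2 difference (RA minus untreated, parental line) of every tested member of 3 lists, with 95% intervals from limma; red marks genes that rose and blue genes that fell at an adjusted p under 0.05. Cyp26b1 (5.44), Rarb (3.75), Hoxb4 (6.84) and Hoxb5 (5.33) stand to the right and Stra6 (-4.57) to the left of otherwise uncalled genes.

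Some genes of cholesterol export rose as well. Of 18 tested genes of cholesterol efflux and lipoprotein transport, 3 rose and 1 fell, against 0.526% and 0.59% of all genes. Their median was 0.19. Abca1, which loads cholesterol onto lipid-poor apolipoproteins, lay at -0.85 and -0.77 untreated and at 2.82 and 2.66 with RA. It rose 11.7-fold (3.55 ± 0.46, adjusted p = 0.0224), with the groups clearly apart. Apoe, an apolipoprotein secreted with cellular cholesterol, rose from 0.03 and 0.25 to 2.77 and 2.56 (2.53 ± 0.28, adjusted p = 0.0157). Its neighbour Apoc1 rose from -4.74 and -4.69 to -2.10 and -2.33 (2.50 ± 0.27, adjusted p = 0.0157). Pltp, which moves phospholipid between lipoproteins, fell by 2.46 ± 0.40 (adjusted p = 0.0451). None of the 26 cholesterol synthesis genes tested was called, and their median was -0.18. Npc1l1, a sterol uptake transporter that was in no list and was chosen after its values were seen, rose by 4.08 ± 0.31 (adjusted p = 0.00792). Apoc1 and Npc1l1 were each well above background on only 1 untreated array. After normexp Abca1 and Apoe kept their calls in limma, while Apoc1, Pltp and Npc1l1 lost theirs (adjusted p = 0.616, 0.101 and 0.227). Pltp also missed the threshold in a fit to the 4 parental arrays alone (adjusted p = 0.0849), and Npc1l1 under quantile normalization.

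Other rises spanned secreted, membrane and structural proteins. Among genes with a symbol that were well above background on all 4 parental arrays, the 20 that rose most were led, after Cyp26b1, by Gzmm, a serine protease of cytotoxic granules, from -0.77 and -1.0 to 3.95 and 3.25 (4.49 ± 0.34, adjusted p = 0.00792). A pair of collagen genes followed. Col20a1 rose from -2.79 and -2.16 to 2.04 and 1.51 (4.25 ± 0.34) and Col11a2 from -2.87 and -3.29 to 0.89 and 1.16 (4.10 ± 0.29, adjusted p = 0.00736). They moved against Col5a3, which fell by 2.19 ± 0.29, and the median of the 24 collagen genes tested was -0.30. Next came Kcnj14, an inward-rectifier potassium channel (3.80), Abca1, Iqcf1 (3.42), the cell-surface teneurin Tenm2 (3.42), Hhipl2 (3.29) and Efnb3, a transmembrane ephrin that guides axons, which rose from -2.87 and -2.93 to 0.42 and 0.25 (3.24 ± 0.36, adjusted p = 0.0157). The rest of the 20, from 3.21 down to 2.86, were Oplah, Tmem230, Fam209, Adgrf4, Sytl1, Noxred1, Dok3, the tight-junction protein Cldn15, the delta opioid receptor Oprd1 and the epiplakin gene Eppk1. After normexp Col5a3, Tenm2, Hhipl2, Efnb3, Tmem230, Fam209, Adgrf4, Sytl1, Dok3 and Oprd1 lost their calls in limma (adjusted p = 0.0599 to 0.324). Kcnj14, Tmem230, Fam209 and Eppk1 lost theirs under quantile normalization. Oprd1 also missed the threshold in a fit to the 4 parental arrays alone (adjusted p = 0.0512).

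Of the 138 genes that rose, 40 were not well above background on either untreated array, so for them only an approximate lower bound of the fold is given. The bounds ran from 1.11 to 62.0 with a median of 4.04. After Hoxb4 and Hoxb5 the largest among genes with a symbol were those of Disp3 (at least 10.6-fold), the dynein gene Dnaic2 (at least 10.1-fold), Tmem30c (at least 9.92-fold), the trefoil peptide Tff1 (at least 9.81-fold), Tmed6 (at least 9.12-fold), Gdpd2 (at least 9.06-fold), the homeobox gene Isx (at least 8.59-fold) and Gal3st1 (at least 7.39-fold). Each was at background on both untreated arrays and well above it on both RA arrays. After normexp these 8 had differences of 1.22 to 1.60, none of them called. Second probes gave 2.22 for Disp3, 3.32 for Tmed6 and 5.45 for Tff1. Sorcs2, a sorting receptor of neurons, was well above background on 1 untreated array. It lay at -5.11 on both and at 1.39 and 2.02 with RA, a rise of 6.82 ± 0.32 (adjusted p = 0.00342), while its second probe gave 3.48.

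**Figure D2:**
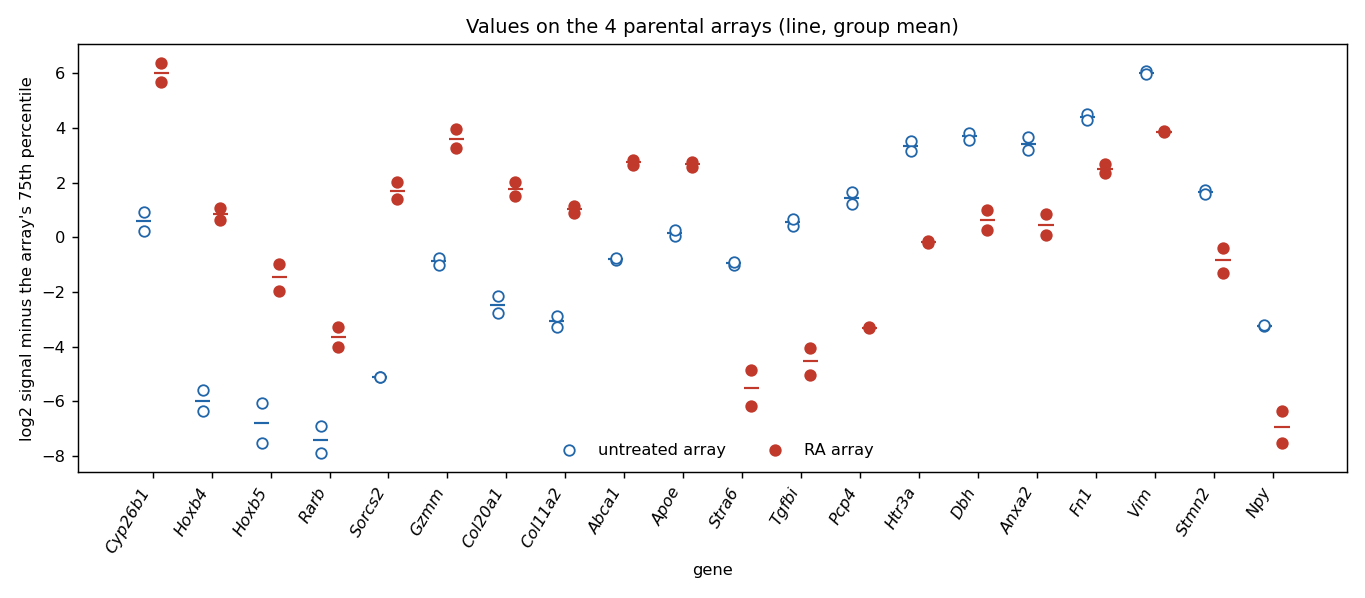
Scaled log2 signal of 20 genes on the 4 parental arrays, open blue for untreated and filled red for RA, with each group's mean as a line; the 2 groups of each gene do not overlap. Hoxb4 climbs from -6.36 and -5.60 to 1.08 and 0.64, and Tgfbi drops from 0.42 and 0.67 to -5.03 and -4.05.

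The called members of the matrix list and of the integrin and actomyosin list fell, whereas those of the collagen list went both ways. Of all 230 changed genes with a symbol 142 fell. Of 24 collagen genes 2 rose and 1 fell. Of 30 tested matrix genes 3 fell and 0 rose, both RA arrays lay below both untreated arrays in 20 and above them in 0, against 20.8% and 23.4% of all genes, and the median was -0.70. Tgfbi, a secreted matrix protein that binds integrins, lay at 0.42 and 0.67 untreated and at -5.03 and -4.05 with RA. It fell by 5.08 ± 0.37 (adjusted p = 0.00792), the largest fall among named genes well above background on all 4 arrays. Sparcl1, a matricellular protein, fell from -1.80 and -1.12 to -5.74 and -5.66 (-4.24 ± 0.34, adjusted p = 0.00792). Fibronectin, Fn1, fell from 4.50 and 4.29 to 2.67 and 2.36 (-1.88 ± 0.29, adjusted p = 0.0397), and missed the threshold with slide side as a block (adjusted p = 0.0583). After normexp Sparcl1 and Fn1 lost their calls in limma (adjusted p = 0.093 and 0.0668). Fn1 also missed the threshold in a fit to the 4 parental arrays alone (adjusted p = 0.0781).

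Integrins, the receptors for such proteins, moved the same way where called. Of 32 integrin and actomyosin genes 3 fell and 0 rose, against 0.59% and 0.526% of all genes, with a median of -0.31. Itgb3, the β3 subunit, fell from -2.16 and -2.55 to -5.28 and -6.25 (-3.41 ± 0.38), although its dimmer second probe differed by -0.24. Itga9 fell to background on both RA arrays, at least 1.64-fold, and Itgb4 fell by 1.70 ± 0.28. With slide side as a block both missed the threshold (adjusted p = 0.0502 and 0.0557), as they did in a fit to the 4 parental arrays alone (0.0707 and 0.0962). Of 21 tested proteases and inhibitors 1 rose and 1 fell, against 0.526% and 0.59% of all genes, with a median of -0.91. Mmp15, a membrane-anchored metalloproteinase, rose from -4.69 and -3.88 to -0.42 and 0.57 (4.36 ± 0.51, adjusted p = 0.0162), and Serpinf1, a secreted serpin, fell from 2.90 and 3.02 to 0.58 on both RA arrays (-2.38 ± 0.27, adjusted p = 0.0162). After normexp Itgb3, Itga9, Itgb4 and Mmp15 lost their calls in limma (adjusted p = 0.251, 0.794, 0.156 and 0.0837).

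Of 22 tested mesenchymal markers 3 fell and 0 rose, against 0.59% and 0.526% of all genes. Those that fell were the calcium-dependent membrane binder Anxa2, from 3.67 and 3.18 to 0.85 and 0.07 (-2.96 ± 0.35), the intermediate filament Vim, from 6.07 and 5.98 to 3.84 and 3.87 (-2.17 ± 0.27), and Fn1. The summed level of the 26 markers on this list with a probe, scaled to each array's 75th percentile, was 247 to 346 untreated and 141 to 145 with RA, and Prrx1, Twist1, Ccn2 and Anxa1 were not well above background on any of the 4 arrays. Such sums add linear signals of different probes, so they follow bright members, such as Vim here and Pmp22 in the next list. They do not measure a shift of a whole list. For a Schwann and glial marker list the sum was 9.24 to 9.88 untreated and 3.34 to 3.65 with RA; the myelin protein gene Pmp22 was the member called, from 2.72 and 2.66 to 0.16 and 0.27 (-2.47 ± 0.26, adjusted p = 0.0149), while the list's median difference was -0.24, and S100b, Foxd3, Fabp7 and Cdh19 were not well above background on any array. For vessel and blood markers it was 20.4 to 23.6 and 17.3 to 19.8, with Hba-a1 and Tmem119 called lower, and for fibroblast markers 2.96 to 4 and 1.94 to 2.24, with 0 members called. The part of other cells in these changes was not tested, and fewer cells of a type and less RNA per cell cannot be told apart.

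Some genes of sympathetic and neuronal identity fell. Of 25 tested adrenergic and catecholamine genes 2 fell and 0 rose, against 0.59% and 0.526% of all genes, with a median of -0.63. Dbh, which makes noradrenaline from dopamine, lay at 3.82 and 3.57 untreated and at 0.98 and 0.28 with RA, a fall of 3.07 ± 0.43 (adjusted p = 0.0277). Tfap2b, a transcription factor of sympathetic neurons, fell from -2.78 and -2.81 to -5.44 and -5.08 (-2.46 ± 0.27, adjusted p = 0.0158). After normexp Dbh kept its call in limma (adjusted p = 0.0401) and Tfap2b did not (0.376). Both lost it under quantile normalization. Over the 18 tested markers of neuroblastoma and sympathetic neuroblast cells, 2 fell and 0 rose, and the groups did not overlap, with RA lower, in 14, against 20.8% of all genes. The summed level of the 21 markers on this list, which likewise follows its bright members, was 376 to 494 untreated and 200.0 to 249 with RA.

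Among 16 granule and peptide genes, the neuropeptide Npy fell from -3.26 and -3.21 to background, at least 6.1-fold (-3.69 ± 0.41, adjusted p = 0.0159), and the median was -0.81. The granins that pack secretory granules did not pass: Chgb differed by -1.85 (adjusted p = 0.128) and Chga by -1.11 (adjusted p = 0.138). Of 32 growth cone and cytoskeleton genes 3 fell and 0 rose, against 0.59% and 0.526% of all genes, with a median of -0.48. Stmn2, a microtubule regulator of growing axons, fell from 1.74 and 1.58 to -0.40 and -1.30 (-2.51 ± 0.35, adjusted p = 0.0277), Dpysl3, a collapsin response mediator, by 1.73 ± 0.28 (adjusted p = 0.0451), and Vim is the third member. The vesicle GTPase Rab3b (-1.69), the sodium channel Scn3a (-2.43) and the neurotrophin Ntf5 (-2.45) were the called members of their lists of 28, 29 and 21 tested genes. Scn3a has 3 probes, which gave -3.14 to -0.68. After normexp Vim kept its call in limma. Npy, Stmn2, Dpysl3, Rab3b, Scn3a and Ntf5 lost theirs (adjusted p = 0.34, 0.0534, 0.0765, 0.143, 0.413 and 0.246). In a fit to the 4 parental arrays alone Stmn2, Dpysl3 and Rab3b missed the threshold (adjusted p = 0.0643, 0.0968 and 0.0962).

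Htr3a, a serotonin-gated ion channel, fell from 3.54 and 3.16 to -0.20 and -0.14 (-3.52 ± 0.34, adjusted p = 0.0130), and was the 1 called gene of 23 transmitter receptors. Pcp4, a small calmodulin regulator, fell from 1.21 and 1.64 to -3.28 and -3.33 (-4.73 ± 0.28, adjusted p = 0.00394). Spink2, a protease inhibitor, fell by 4.01, the nucleotide pyrophosphatase Enpp3 by 3.63 and Pdlim3, a muscle-type scaffold protein, by 3.62. The heparan sulfate enzyme Hs3st6 fell from 3.80 and 4.00 to 1.01 and 0.30 (-3.24 ± 0.34, adjusted p = 0.0145), and the actin-severing gelsolin gene Gsn from 1.32 and 1.24 to -1.46 and -1.76 (-2.89 ± 0.28, adjusted p = 0.0128). The rest of the 20 largest falls on all-array genes, from -3.66 to -2.91, were Oas1a, Cthrc1, Ptgr1, Glrx, Hba-a1, Grb14, Lrrn4, F13a1, Kyat3 and Septin4. Oas1a and its neighbours Oas1c and Oas1f, which also fell, are close paralogues whose probes may share signal, and the second Kyat3 probe gave -0.90. After normexp Oas1a, Ptgr1, Grb14, F13a1, Kyat3 and Septin4 lost their calls in limma (adjusted p = 0.0505 to 0.235). Enpp3, Ptgr1, Lrrn4, F13a1, Kyat3 and Septin4 lost theirs under quantile normalization.

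Of the 155 genes that fell, 19 were not well above background on either RA array, with bounds from 1.58-fold to 18.3-fold and a median of 2.9-fold. Among genes with a symbol, the catenin Ctnna2 fell at least 18.3-fold, the corepressor gene Sin3b at least 8.83-fold, the paraoxonase Pon3 at least 7.36-fold, Dglucy at least 6.14-fold, Npy at least 6.1-fold and Echdc3 at least 6.05-fold. Gpr20, Slc10a6, Sorl1 and Zfp879 followed at 2.9-fold to 2.24-fold. A second probe gave a smaller difference for Ctnna2 (-1.82), Sin3b (-0.37), Dglucy (-0.29), Slc10a6 (-0.53) and Zfp879 (-1.59). After normexp the 10 genes named here had differences of -1.93 to -0.89, none of them called. In the lists of the nuclear envelope, Notch and interferon genes, the called members were Syne3, a nuclear envelope spectrin (-4.06 ± 0.28), the Notch-modifying Mfng (-1.73 ± 0.28) and Oas1a. Syne3, Mfng and Oas1a lost their calls after normexp in limma (adjusted p = 0.181, 0.175 and 0.0639).

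**Figure D3:**
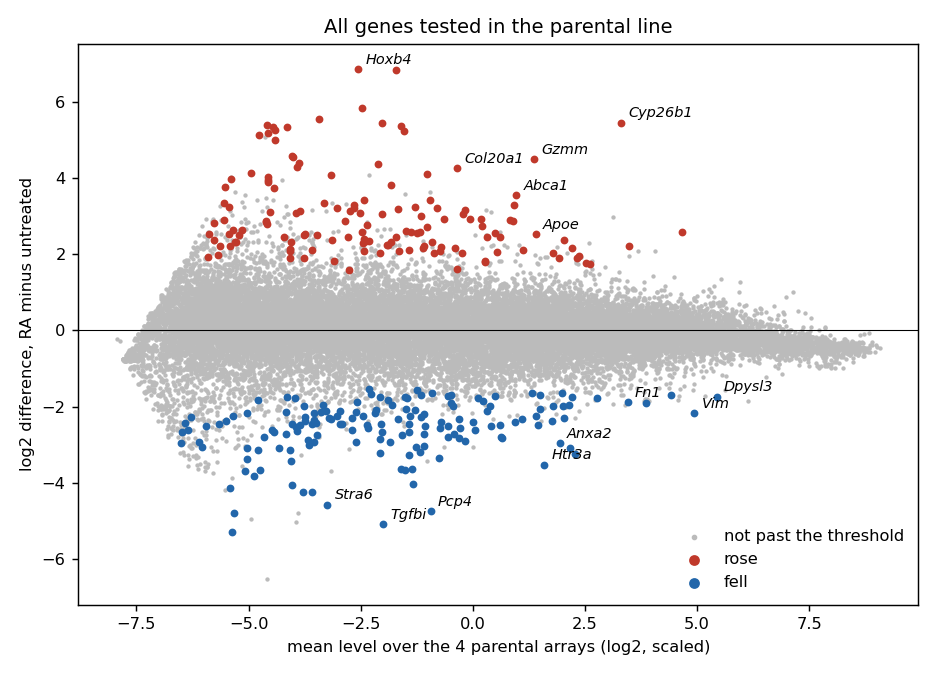
Difference with RA (log2) of each of 26259 tested genes against its mean level over the 4 parental arrays, with the 138 that rose in red and the 155 that fell in blue. Hoxb4 lies highest at 6.84, and Tgfbi (-5.08) and Pcp4 (-4.73) are among the lowest of the genes that fell.

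Some groups had no called member. Only 1.12% of all genes were called, so 0 calls in a list of this size says little about it. All 40 tested DNA replication genes missed the threshold, with a median of 0.40; both RA arrays lay above both untreated arrays in 23 of them and below in 3, against 23.4% and 20.8% of all genes. Rpa2, a subunit of the single-strand DNA binding complex, came closest, from 1.94 and 1.77 to 3.36 and 3.34 (1.5 ± 0.26, adjusted p = 0.0558), followed by the replication licensing factor Cdc6 (1.24 ± 0.26, adjusted p = 0.0847). The 38 mitosis genes had a median of 0.02 and 0 calls. Cdkn1a, an inhibitor of the cell cycle, lay at 2.29 and 1.42 untreated and at 3.29 and 3.63 with RA (1.61 ± 0.35, adjusted p = 0.0889). None of 34 serum-response, 20 MAP kinase feedback, 33 Wnt and 48 ribosomal protein genes was called, with medians of 0.17, -0.47, -0.05 and -0.45; the ribosomal median became 0.02 after quantile normalization.

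The 16 cholinergic genes tested had 0 calls and a median of -0.66. Chat, the gene of choline acetyltransferase, differed by -0.54 ± 1.27 in the parental line (adjusted p = 0.912), with -2.63 and -4.57 untreated and -3.22 and -5.06 with RA. These groups overlapped, and the sign turned when parental RA replicate 2 or parental untreated replicate 1 was left out (0.38 and 0.43). In the clone Chat lay at -3.73 and -2.71 untreated and at 1.10 and -2.58 with RA, so without RA the lines overlapped; whether the probe reads the introduced gene is not given. Lmna, the A-type lamin gene, was 3.80 and 3.68 untreated and 3.36 and 3.43 with RA (-0.34 ± 0.26, adjusted p = 0.642).

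**Figure D4:**
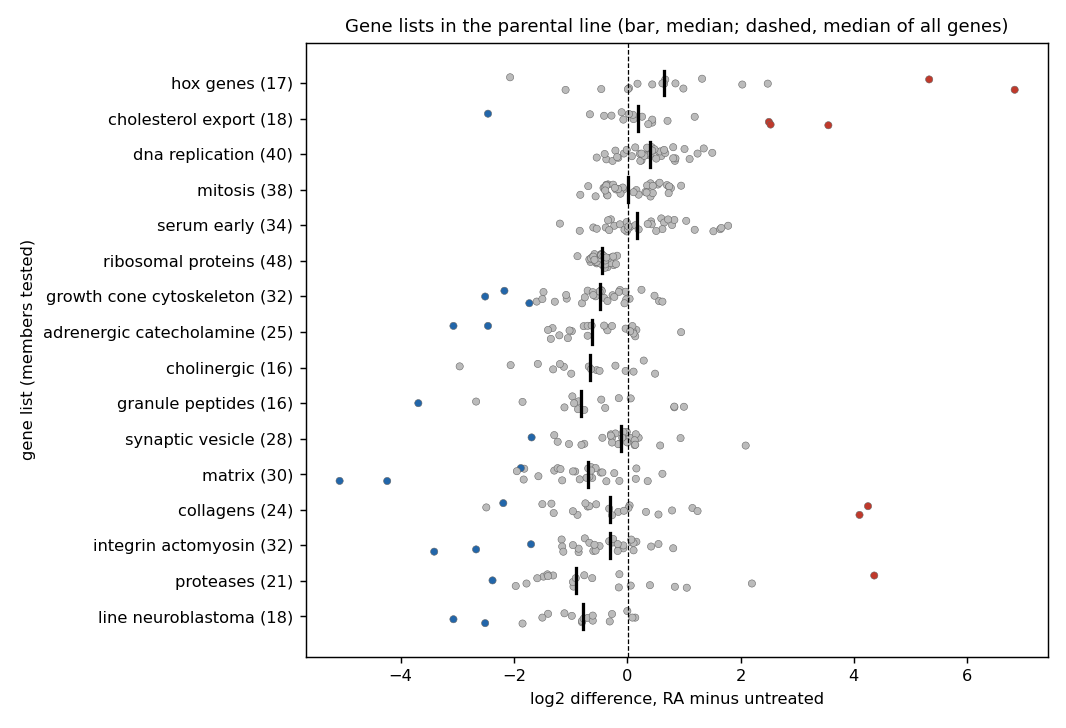
Log2 difference with RA of each tested member of 16 gene lists (points; red rose, blue fell, grey not called), with the list's median as a bar and the median of all genes, 0.02, as a dashed line. The matrix (-0.70), granule peptide (-0.81) and protease (-0.91) medians lie to the left and the Hox (0.65) and DNA replication (0.40) medians to the right.

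Called genes that sit next to each other in RefSeq order formed 7 pairs, each moving in 1 direction: Apoc1 and Apoe and Tnni2 and Lsp1 rose, while Pla2g3 and Inpp5j, Igsf5 and Pcp4, Oas1c and Oas1f, Oas1f and Oas1a, and Ccdc33 and Stra6 fell. Only tested genes with a symbol count here as neighbours.

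The 2/4 clone, whose RA and control arrays are separate from the parental ones and lie in the opposite slide rows, gave a second view of the same genes. Clone RA replicate 1 was outside the scanner software's range for the spike-in detection limit (2.11). It had 71.9% of probes well above background, against 47.8% to 62.8% on the other arrays. The clone RA arrays correlated at 0.9624, the lowest of the 4 groups. How this bears on the clone calls was not tested. There 1215 of the tested genes changed with RA (4.63%), 676 upward (2.57%) and 539 downward (2.05%). Of the 138 genes that rose in the parental line, 114 were also positive in the clone, where 50.9% of all genes were, 36 rose and 5 fell. Of the 155 that fell, 98 were negative in the clone, 35 fell and 9 rose. The median difference of the parental risers was 2.63 in the parental line and 0.96 in the clone, and of the fallers -2.46 and -0.50; these genes were chosen on the parental values. Cyp26b1 rose by 6.38 in the clone, Col11a2 by 3.32, Mmp15 by 3.58 and Hoxb5 by 2.81, Hs3st6 fell by 3.24 and Stra6 by 2.94, and the difference between lines did not pass for any of them. Rarb differed by 0.71 in the clone (adjusted p = 0.415), with a difference between lines that did not pass either (adjusted p = 0.120).

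The difference between the RA responses passed the threshold for 54 genes (0.206%), 22 with a higher (0.0838%) and 32 with a lower parental response (0.122%), and 35 of them had also changed in the parental line. Slide row doubles in this contrast and cannot be told apart from it. Leaving out parental RA replicate 1 or 2, parental untreated replicate 1 or 2, or clone untreated replicate 1 or 2 left 0 genes, with 2432 to 3691 at an unadjusted p under 0.05 in limma, whereas 43 genes were called without clone RA replicate 1 and 1006 without clone RA replicate 2. Hoxb4 rose by 6.84 in the parental line and 2.25 in the clone, a difference of 4.59 ± 0.53 (adjusted p = 0.0384). Sorcs2 differed between lines by 5.80 ± 0.45 and Tff1, which fell by 2.28 in the clone, by 7.60 ± 0.60 (both adjusted p = 0.0160). For Hoxb4 and Tff1, at background on the untreated parental arrays, these sizes are fitted values that depend on signals not above background. In the other direction Fam183b differed by -7.92 ± 0.71 (adjusted p = 0.0181), where it rose by 5.07 in the clone and its parental difference of -2.85 did not pass (adjusted p = 0.0553).

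**Figure D5:**
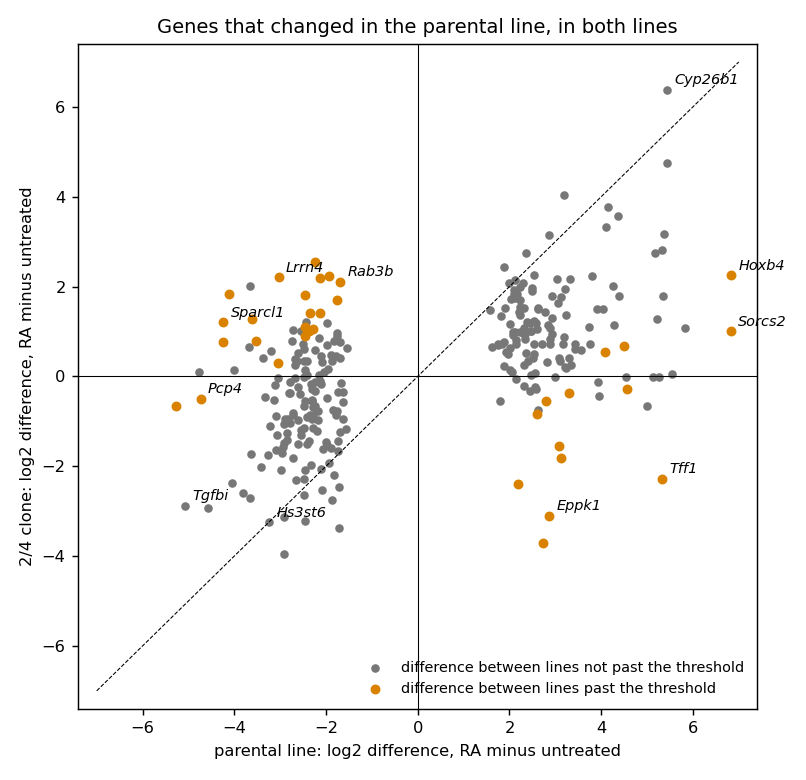
Log2 difference with RA in the 2/4 clone against that in the parental line for the 293 genes that changed in the parental line; orange marks genes whose responses differ between the lines at an adjusted p under 0.05, and the dashed line is equality. Cyp26b1 (5.44 and 6.38) and Hs3st6 (-3.24 in both) lie near the line, whereas Tff1 (5.32 and -2.28) and Lrrn4 (-3.03 and 2.21) lie in opposite corners.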

How the data were processed

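Expression was measured with 8 one-colour Agilent arrays, 2 per group; 4 belong to the parental line. Feature Extraction, the authors' scanner software, had subtracted background from each signal intensity and removed spatial trends, per the file headers. The series table deposited by the authors holds log2 of this intensity, shifted by 1 constant per array, as was checked. Flags for background, saturation and outlier spots (other columns) were used as deposited. Here log2 intensity minus each array's 75th percentile over non-control spots was used, outlier spots were dropped, and a probe had to exceed background clearly on 2 or more of the 8 arrays. The brightest probe stood for a gene, named through RefSeq accessions. A limma 3.58.1 model (R 4.3.3) used all 8 arrays, with 1 mean per group (residual df 4, prior df 2.99), with Benjamini-Hochberg adjustment over 26259 genes, and was tested on simulated data. The number of arrays limits the precision. For genes at background throughout a group, "at least" folds compare the brighter mean with each array's lowest level well above background. Where the measured signal was higher than that level, it was used instead. The level is a minimum over all probes of the array, so these folds are approximate and not strict limits.

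The genes named were all tested retinoid enzymes, receptors and Hox genes with Lmna and Chat, the 20 largest rises and falls well above background on all 4 parental arrays, the 10 largest bounds each way, called and leading members of the lists, and the 10 largest differences between lines; those without a symbol are not printed. The members, lists and rules were chosen with earlier results of these data known. Alternatives changed the background correction (normexp with an offset of 50), scaling, filter, probe choice, variance model, slide side and arrays.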

Additional observations from a re-analysis of the deposited data

Results flagged for a closer look

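For 23 genes named above or below the RA response of the parental line differed from that of the 2/4 clone by limma's test of the difference itself; slide row goes with this contrast and its part was not tested. Where a gene was at background in a group, the size is a fitted value, not a bound. The parental response was higher for Tff1 (difference of 7.60 on the log2 scale), Eppk1 (5.96), Sorcs2 (5.80), Dnaic2 (4.83), Hoxb4 (4.59), Cdkn1a (4.15), Ddit3 (3.92), Gzmm (3.81), Hhipl2 (3.64) and Npc1l1 (3.54). Eppk1, which encodes the cytolinker epiplakin, rose by 2.86 in the parental line and fell by 3.1 in the clone. Cdkn1a and the stress factor gene Ddit3 differed by 1.61 and 0.85 in the parental line, neither past the threshold there, and fell by 2.54 and 3.07 in the clone.

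The parental response was lower for Fam183b (-7.92), Sparcl1 (-5.44), Trim63 (-5.34), Lrrn4 (-5.24), Ctnna2 (-5.00), Pdlim3 (-4.91), Sin3b (-4.62), Htr3a (-4.29), Pcp4 (-4.22), Rab3b (-3.80), Gpr20 (-3.76), Tfap2b (-3.57) and Slc10a6 (-3.34). Trim63, a muscle ubiquitin ligase, was not well above background on any parental array and rose by 4.23 in the clone. Lrrn4 and Rab3b fell in the parental line, by 3.03 and 1.69, and rose in the clone, by 2.21 and 2.11.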

How the results depend on the processing

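The 293 genes called with RA in the parental line (138 higher, 155 lower) became 56 (29, 27) after normexp, 17 (10, 7) with dim probes kept, 22 (15, 7) against a 2-fold change, 635 (248, 387) among probes well above background on every array, 801 (323, 478) with a trended, robust variance and 654 (336, 318) without both clone RA arrays, an alternative chosen after seeing the data; the fit to the 4 parental arrays alone gave 218, of which 99 lower. Leaving out 1 array gave 0 to 654 genes (0 to 336 higher, 0 to 318 lower). The 54 differences between lines became 0 after normexp and 0 with dim probes kept (limma then gave 2454 and 3178 genes an unadjusted p under 0.05), 302, 453, 21 with slide side as a block and 15 against a 2-fold change, and 0 to 1006 with 1 array left out; without both clone RA arrays there is no value. All other settings left these counts within 1.5 times. For the parental line, leaving out either clone RA array or both is the same fit, as a lone array adds nothing to the spread. The same holds for leaving out either clone untreated array. Normexp shifted the median of all genes to -0.22 and keeping dim probes to -0.15. All 293 kept their sign under quantile normalization and the series table values, and 287 did under normexp. Fewer kept their call, so similar totals hold partly different genes. Of the 293, 180 stayed called under quantile normalization, 161 in the fit to the 4 parental arrays alone and 215 with slide side as a block. Signs turned for Cyp26a1 (-0.45 after normexp, -0.74 with a floor for dim signals), Hoxb2 (-0.07 after normexp) and Chat (-1.51 to 0.43 with 1 array left out, positive at 0.38 and 0.43); the causes were not tested. Hoxb4, Sorcs2, Gzmm, Col20a1, Col11a2, Tgfbi and Pcp4 kept their call in every setting that left the 4 parental arrays in and kept their probe. With slide side as a block, which pairs 1 array of each group by position, 252 genes were called, and Smad3, Ptgr1, Septin4, Echdc3, Fn1, Dpysl3, Rab3b, Mfng, Itga9 and Itgb4 lost their call (adjusted p = 0.0502 to 0.0636). No paired analysis by replicate number was possible because the labels carry none. Signal over background limits the dim genes.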
